A study of Mus musculus with 11 samples.

Results

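The regions described here are places in the chromatin of mouse jejunal villus cells where the transcription factor HNF4A was called without CDX2 and was still called when Cdx2 was deleted. They were chosen by measured values, namely the calls of HNF4A in both genotypes, of CDX2 in wild type (WT) and of H3K4me2 in WT. A WT HNF4A peak had to meet 3 criteria: no overlap with a peak of either WT CDX2 library, an overlap of at least 1 bp with an HNF4A peak in the Cdx2 knockout (KO), and at least 1 WT nucleosome carrying H3K4me2 centred within 1 kb of the peak centre. Of 22376 WT HNF4A peaks, 18676 had no CDX2 peak, 5428 of these were called again in Cdx2 KO, and 5080 of those also had the nucleosome. These 5080 regions, called kept regions below, make up 22.7% of the WT HNF4A peaks. Their counterparts in Cdx2 KO were 5127 of 9676 HNF4A peaks, or 53.0% of that list. With only HNF4A peaks of score 100 or more in both genotypes, 2123 regions met the criteria.

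The study mapped CDX2, HNF4A and H3K4me2 by chromatin immunoprecipitation and sequencing (ChIP-seq) in villus epithelium of mice on a 129xC57BL6 mixed background, to follow the chromatin when a factor is missing. HNF4A was mapped in 1 Cdx2 KO and 1 WT library, and CDX2 in 1 Hnf4a KO library and 2 WT libraries. H3K4me2 was mapped in 1 library each of Cdx2 KO, Hnf4a KO, a double knockout titled Cdx2-Cdx1, a double knockout titled Cdx2-Hnf4a, and WT. An input DNA sample was not analysed here. The title of each double knockout is contradicted by at least 1 of its other labels as to the gene deleted together with Cdx2, so each is called by its title. No source used here names the Cre driver, the age or the sex of the mice, and libraries were built from pooled ChIP experiments. No library measured CDX2 in Cdx2 KO or HNF4A in Hnf4a KO, so the deletions have no check in these data, and no marker of the tissue itself was measured.

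HNF4A is a nuclear receptor that binds DNA at enhancers and promoters of enterocytes, the absorptive cells of the villus, and is known for its part in lipid handling and brush border genes. CDX2 is a homeodomain factor that sets and maintains the identity of the intestinal epithelium. H3K4me2 marks nucleosomes at active promoters and enhancers, and at a bound enhancer the marked nucleosomes usually lie on either side of the factor, leaving the bound DNA between them less covered.

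Each list gave positions with a score and no reads, so the depth of every library is unknown. H3K4me2 was counted as the number of called nucleosomes with a score of 52 or more, since the Hnf4a KO list reached down to a score of 1.7 and the other 4 began between 50.1 and 51.3. At 52 or more the lists held between 245431 nucleosomes (WT) and 281957 (titled Cdx2-Cdx1), and each ratio to WT was divided by the ratio of the lengths the lists cover. That divisor was 1.07 for Cdx2 KO, 1.00 for Hnf4a KO, 1.15 for the library titled Cdx2-Cdx1 and 1.15 for the library titled Cdx2-Hnf4a. With 1 library per condition there is no replicate check and no test between conditions. All intervals are 95% intervals that cover counting error only, and regions are not replicates. A nucleosome not called is not shown to be absent.

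HNF4A at the kept regions is given first as a description, because the criteria used these values. In Cdx2 KO the HNF4A peak scores of the 5080 regions ran from 50.02 to 2367 with a median of 99.7, against 50.02 to 3100 with a median of 159 in WT. The score in Cdx2 KO divided by that in WT had a median of 0.678, with quartiles of 0.435 and 1.02. It was at or above 1 at 1322 regions (26.0%), under 0.5 at 1628 (32.0%), and at or above 2 at 195 (3.84%). Scores of different lists move with depth, and no peak scoring under 50 was listed, so weak WT peaks could enter only if their score held up. Across the 5080 regions the scores had a Spearman rho of 0.497 as a description of these 2 libraries. Of the 500 regions with the highest WT scores, 270 (54.0%) were among the 500 highest in Cdx2 KO. The HNF4A peak centres of Cdx2 KO and WT lay a median of 40.5 bp apart.

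Among WT HNF4A peaks without CDX2 and with a WT nucleosome, the share called again in Cdx2 KO followed the WT score. It was 14.7% (13.7 to 15.6) at WT scores of 50 to 75, 27.8% at 75 to 100, 40.8% at 100 to 150, 55.6% at 150 to 200, 76.0% at 200 to 400, and 93.6% (91.7 to 95.2) at 400 or more. Over all 22376 WT HNF4A peaks 30.1% were called again. The 8723 marked peaks without CDX2 that were not called in Cdx2 KO are called lost peaks below. The median WT score was 159 at kept regions and 72.5 at lost peaks, and the median WT peak width 393 bp at kept regions and 295 bp at lost peaks. Among the 19 chromosomes examined singly, the kept share lay between 32.2% on chromosome 13 and 41.2% on chromosome 11, and was 34.5% (25.8 to 44.0) on the X chromosome.

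**Figure D1:**
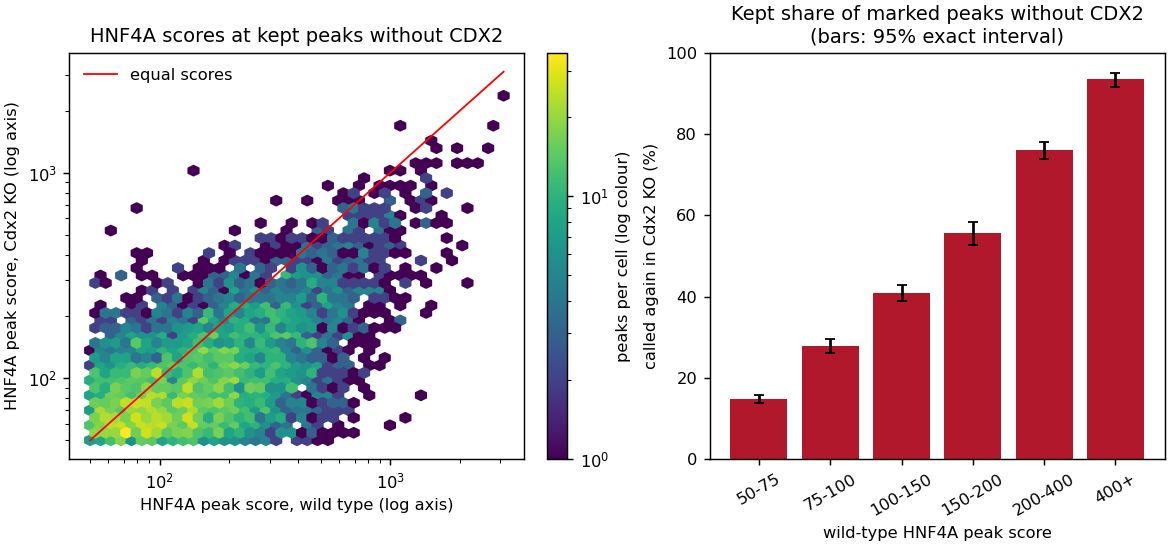
Left, HNF4A peak score in Cdx2 KO (vertical, log axis) against WT (horizontal, log axis) for the 5080 kept regions, with colour for the number of regions and a red line at equal scores. Right, percent of marked HNF4A peaks without CDX2 called again in Cdx2 KO, by WT score, with exact 95% intervals. Most regions lie under the red line, and the share climbs to 93.6% in the highest band.

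The strongest kept region lay on chromosome 16 at 76453883 to 76454588 (build mm9, as are all positions here), with an HNF4A score of 2367 in Cdx2 KO and 3100 in WT. Its H3K4me2 nucleosomes numbered 5 in Cdx2 KO, 5 in Hnf4a KO, 7 in the library titled Cdx2-Cdx1, 5 in the library titled Cdx2-Hnf4a and 5 in WT. None was within 100 bp of the centre in Cdx2 KO or WT, but 1 was in Hnf4a KO and 1 in each double knockout. A WT CDX2 peak lay 513 bp away. The next regions by WT score also had several marked nucleosomes in Cdx2 KO. On chromosome 6 at 83371728 to 83372778 (score 1772 in Cdx2 KO, 2764 in WT) there were 5 nucleosomes in Cdx2 KO and 7 in WT. On chromosome 3 at 87312066 to 87313498 (score 1341 in Cdx2 KO, 2726 in WT) there were 5 nucleosomes in each. On chromosome 8 at 73321266 to 73322130 (score 1088 in Cdx2 KO, 2316 in WT) there were 7 in each. A region on chromosome 11 at 57613810 to 57614497 scored 302 in Cdx2 KO and 2225 in WT, yet had 5 nucleosomes in each. The weakest in WT, on chromosome 6 at 119371110 to 119371325, scored 71.1 in Cdx2 KO and 50.02 in WT, and also had 5 nucleosomes in each.

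Regions at the extremes of the HNF4A score ratio differed widely in their nucleosomes. The ratio was highest on chromosome 4 at 155429277 to 155429662, where HNF4A scored 525 in Cdx2 KO and 59.5 in WT, a ratio of 8.83. Nucleosomes there numbered 8 in Cdx2 KO and 9 in WT. Next was chromosome 14 at 70457532 to 70457868, with scores of 674 in Cdx2 KO and 82.3 in WT and 7 nucleosomes in Cdx2 KO against 3 in WT. The third, on chromosome 5 at 143686619 to 143686801 (1058 in Cdx2 KO, 143 in WT), had 1 nucleosome in Cdx2 KO and 2 in WT, and a WT CDX2 peak ended 20 bp from its edge. The ratio was lowest on chromosome 17 at 73903900 to 73904369, where HNF4A scored 64.2 in Cdx2 KO and 1150.1 in WT, a ratio of 0.0558. That region had 0 nucleosomes in Cdx2 KO, 6 in Hnf4a KO, 2 in the library titled Cdx2-Cdx1, 1 in the library titled Cdx2-Hnf4a and 3 in WT. A region on chromosome 9 at 102685440 to 102685902 (59.2 in Cdx2 KO, 1042 in WT) had 1 nucleosome in Cdx2 KO and 3 in WT. One on chromosome 19 at 55321951 to 55323065 (86.4 in Cdx2 KO, 1349 in WT) had 4 nucleosomes in each.

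In each of the 4 knockout lists most kept regions were marked with H3K4me2, most fully in Hnf4a KO and least in the library titled Cdx2-Hnf4a. The mean number of nucleosomes within 1 kb was 4.23 per region in Cdx2 KO, 4.45 in Hnf4a KO, 4.29 in the library titled Cdx2-Cdx1 and 3.78 in the library titled Cdx2-Hnf4a, against 4.41 in WT. Scaled for list length, the ratio to WT was 0.899 (0.882 to 0.916) in Cdx2 KO and 1.01 (0.992 to 1.03) in Hnf4a KO, whose ratio was 0.702 when nucleosomes of any score were counted. It was 0.845 (0.829 to 0.861) in the library titled Cdx2-Cdx1 and 0.748 (0.734 to 0.763) in the library titled Cdx2-Hnf4a. The 4 ratios share the WT list. The criteria asked for a nucleosome in WT but did not ask for one in a knockout, a condition that by construction favours WT. Kept and lost peaks both had to meet it, but its weight need not be equal. Regions with 1 WT nucleosome were 516 of 5080 kept regions and 1602 of 8723 lost peaks. What this adds to differences between the groups was not tested. Set against Cdx2 KO in place of WT, the ratio was 0.940 (0.922 to 0.958) in the Cdx2-Cdx1 titled library and 0.832 (0.816 to 0.849) in the Cdx2-Hnf4a titled one.

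The ratio of the mark to WT was higher at kept regions than at lost peaks in the 3 lists whose labels have Cdx2 deleted. In Cdx2 KO the ratio to WT was 0.899 at kept regions and 0.826 (0.813 to 0.840) at lost peaks, and the kept ratio was 1.09 times the lost one (1.06 to 1.11). This quotient was 1.09 (1.07 to 1.12) in the library titled Cdx2-Cdx1 and 1.11 (1.09 to 1.14) in the library titled Cdx2-Hnf4a. In Hnf4a KO it was 1.02 (0.994 to 1.04), with 1.01 at kept regions and 0.992 at lost peaks, and its interval includes 1. Of the marked peaks that did overlap CDX2 in WT, 1290 kept HNF4A in Cdx2 KO and had a Cdx2 KO ratio of 0.862 (0.832 to 0.893), whereas 2214 lost it and had 0.722 (0.700 to 0.745). The ratio at the kept regions without CDX2 was 1.04 (1.00 to 1.09) times that of the peaks with CDX2 that kept HNF4A and 1.24 (1.20 to 1.29) times that of the peaks with CDX2 that lost it. The median WT score was 159 at kept regions and 243 at peaks with CDX2 that kept HNF4A. In the rising bands of WT score given above, the Cdx2 KO ratio at kept regions was 0.954, 0.942, 0.898, 0.908, 0.868 and 0.860. At peaks with CDX2 that kept HNF4A it was 0.879, 0.884, 0.852, 0.851, 0.857 and 0.869.

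**Figure D2:**
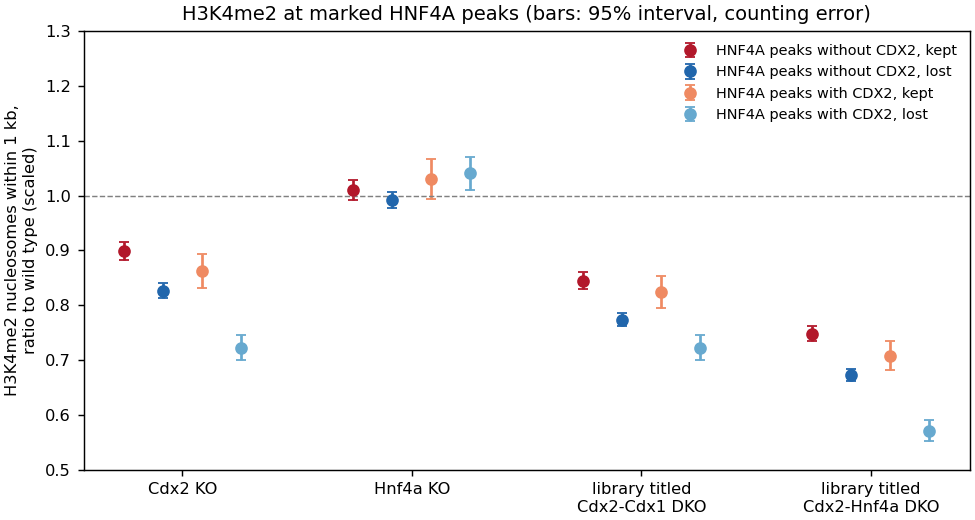
Ratio to WT of H3K4me2 nucleosome numbers within 1 kb, scaled by list length, for 4 knockout lists (horizontal) and 4 groups of marked WT HNF4A peaks (colours), with 95% intervals for counting error. In Cdx2 KO the kept regions without CDX2 sit at 0.899, above the lost peaks without CDX2 at 0.826. In Hnf4a KO these groups sit at 1.01 and 0.992, and the interval of their quotient (0.994 to 1.04) includes 1.

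The gap between kept regions and lost peaks was present at each HNF4A strength, although kept peaks were the stronger ones. In Cdx2 KO the ratio at WT scores of 50 to 75 was 0.954 (0.908 to 1.00) at 800 kept regions and 0.851 (0.833 to 0.870) at 4654 lost peaks. At scores of 100 to 150 it was 0.898 (0.860 to 0.939) at kept regions and 0.789 (0.758 to 0.822) at lost peaks. At 200 to 400 it was 0.868 (0.836 to 0.900) at kept regions and 0.724 (0.669 to 0.783) at lost peaks. At 400 or more it was 0.860 (0.819 to 0.902) at 749 kept regions and 0.555 (0.434 to 0.709) at 51 lost peaks. In both groups the ratio was thus lower at the stronger peaks. In the Hnf4a KO list the groups were close: at scores of 50 to 75 its ratio was 0.987 at kept regions and 0.985 at lost peaks, and at 200 to 400 it was 1.01 at kept regions and 0.974 at lost peaks.

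**Figure D3:**
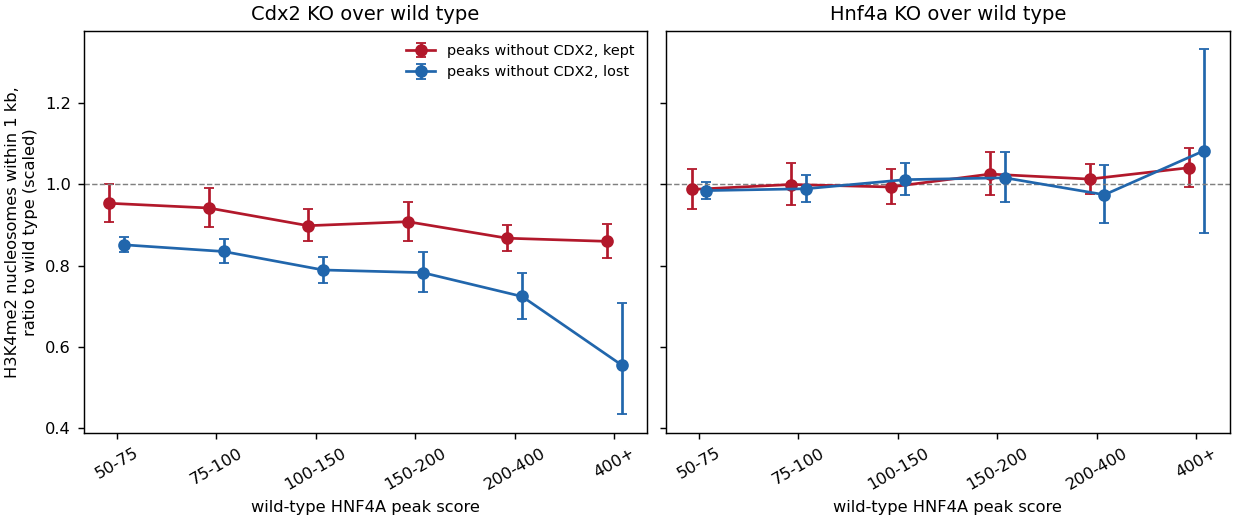
Ratio to WT of H3K4me2 nucleosome numbers (vertical, scaled) by WT HNF4A score (horizontal) in Cdx2 KO (left) and Hnf4a KO (right), for kept regions (red) and lost peaks (blue) without CDX2, with 95% intervals for counting error. In Cdx2 KO the red points run between 0.860 and 0.954 and the blue between 0.555 and 0.851, while in Hnf4a KO both colours lie near 1.

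The gap was not the same at every level of the WT mark. Among regions with 1 WT nucleosome, the Cdx2 KO ratio was 1.22 (1.08 to 1.37) at 516 kept regions and 0.815 (0.758 to 0.876) at 1602 lost peaks. With 2 or 3 WT nucleosomes it was 0.940 (0.897 to 0.984) at kept regions and 0.765 (0.738 to 0.792) at lost peaks. With 4 or 5 it was 0.891 at kept regions and 0.836 at lost peaks, and with 6 to 8 it was 0.884 (0.860 to 0.910) at kept regions and 0.854 (0.832 to 0.876) at lost peaks. With 9 or more the groups could not be separated, at 0.826 (0.772 to 0.884) in 197 kept regions and 0.820 (0.770 to 0.874) in 226 lost peaks. The gap was widest where the WT mark was sparse. In Hnf4a KO the groups also differed there: with 1 WT nucleosome its ratio was 1.49 (1.33 to 1.67) at kept regions and 1.26 (1.18 to 1.34) at lost peaks, and with 9 or more it was 0.859 at kept regions and 0.866 at lost peaks. In both knockouts the ratio at kept regions was thus lower where the WT number, by which the regions were sorted, was higher.

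Within the kept regions, the H3K4me2 ratio in Cdx2 KO was higher in bands with a higher HNF4A score ratio. At the 351 regions whose HNF4A score in Cdx2 KO was under 0.25 of that in WT, the nucleosome ratio was 0.817 (lower bound 0.758). It was 0.857 at score ratios of 0.25 to 0.5, 0.902 at 0.5 to 1, 0.953 at 1 to 1.5, and 0.974 (lower bound 0.913) at the 473 regions at 1.5 or more. In the library titled Cdx2-Hnf4a the same bands gave 0.591, 0.687, 0.759, 0.821 and 0.870. Hnf4a KO ran from 1.04 in the lowest band to 0.986 in the highest. Low score ratios occur at high WT scores, so the order was also read at WT scores of 200 or more. There the Cdx2 KO ratio was 0.817 (0.758 to 0.880), 0.848, 0.889 and, at the 134 regions whose HNF4A score was no lower in Cdx2 KO, 0.951 (0.850 to 1.07). The intervals of the lowest and highest bands overlapped, and that of the highest included 1. The median WT score was still 427 in the lowest band and 259 in the highest, so WT score was not held level. HNF4A and H3K4me2 were mapped in separate libraries of the same genotype, and whether the same animals gave both is not stated.

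Few kept regions had no called nucleosome left. Of the 5058 with a WT nucleosome scoring 52 or more, 172 had none in Cdx2 KO, or 3.40% (2.92 to 3.94), against 9.68% of all 17188 such WT HNF4A peaks and 12.6% (11.9 to 13.4) of lost peaks. The share moved to 5.28% with nucleosome scores of 100 or more and to 2.08% with HNF4A scores of 100 or more. In Hnf4a KO 107 had none, or 2.12%, against 3.77% of all and 5.59% of lost peaks. In the library titled Cdx2-Cdx1 the share was 3.93%, against 9.47% of all and 12.8% of lost peaks. The library titled Cdx2-Hnf4a had the most, 546 regions or 10.8% (9.95 to 11.7), against 20.1% of all and 25.1% of lost peaks. Peaks with CDX2 in WT that kept HNF4A had lower shares still, with 2.25% in Cdx2 KO and 0.698% in Hnf4a KO. Their shares were 2.02% in the library titled Cdx2-Cdx1 and 9.15% in the library titled Cdx2-Hnf4a. In the last list, kept regions minus those peaks had an interval that includes 0 (-0.248 to 3.34 points). Kept regions had more nucleosomes in WT than lost peaks, with means of 4.41 and 3.74, and what that adds to the difference in empty regions was not tested. Large falls, those to 0 included, were also less common than at all HNF4A peaks in Cdx2 KO. Among 3106 kept regions with 4 or more WT nucleosomes, 210 (6.76%) had at most 0.5 of that number in Cdx2 KO, against 11.2% of all HNF4A peaks so marked, and 107 (3.44%) in Hnf4a KO, against 3.68%. Peaks with CDX2 in WT that kept HNF4A had 8.54% in Cdx2 KO and 1.16% in Hnf4a KO. In Cdx2 KO, kept regions minus those peaks had an interval that includes 0 (-3.90 to 0.0854 points). Rises of 1.5 times or more were at background, with 85 (2.74%) in Cdx2 KO against 2.75% and 147 (4.73%) in Hnf4a KO against 4.68%. Of the same 3106 regions, 229 (7.37%) in the library titled Cdx2-Cdx1 had at most 0.5 of the WT number, against 11.5%, and 138 (4.44%) at least 1.5 times, against 4.03%. In the library titled Cdx2-Hnf4a, 556 (17.9%) had at most 0.5, against 23.9%, and 102 (3.28%) at least 1.5 times, against 3.15%.

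Without regard to size, 1841 of 5058 regions (36.4%) had fewer nucleosomes in Cdx2 KO than in WT, against 44.9% of all marked HNF4A peaks, and 1347 (26.6%) had more, against 21.8%. In Hnf4a KO 1607 (31.8%) had fewer, against 32.2%, and 1705 (33.7%) had more, against 32.4%, both near the background. In the library titled Cdx2-Cdx1 38.7% had fewer and 31.3% more, against 45.0% and 26.5% of all. In the library titled Cdx2-Hnf4a 50.7% had fewer and 22.8% more, against 56.8% and 19.5%. These numbers are not scaled for list length, which favours rises in the longer lists.

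Some kept regions had few marked nucleosomes in Cdx2 KO while HNF4A was still called. On chromosome 7 at 26237117 to 26237526 the nucleosomes numbered 2 in Cdx2 KO, 5 in Hnf4a KO, 2 in the library titled Cdx2-Cdx1, 1 in the library titled Cdx2-Hnf4a and 8 in WT, with an HNF4A score of 177 in Cdx2 KO and 371 in WT. On chromosome 3 at 122571302 to 122571510 they numbered 1 in Cdx2 KO, 5 in Hnf4a KO, 3 and 0 in the double knockouts titled Cdx2-Cdx1 and Cdx2-Hnf4a, and 7 in WT. HNF4A there scored 165 in Cdx2 KO and 168 in WT, nearly equal. On chromosome 9 at 44209217 to 44209655 there were 0 nucleosomes in Cdx2 KO, 2 in Hnf4a KO, 6 in the library titled Cdx2-Cdx1, 0 in the library titled Cdx2-Hnf4a and 5 in WT. The others of the 5 largest falls lay beside CDX2. On chromosome 4 at 107739294 to 107739513, 463 bp from a WT CDX2 peak, there were 3 nucleosomes in Cdx2 KO and 8 in WT. On chromosome 13 at 95028587 to 95028869, 314 bp from one, there were 4 in Cdx2 KO and 9 in WT. All 5 regions had 1 or 0 nucleosomes in the library titled Cdx2-Hnf4a.

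The largest rises in Cdx2 KO also differed between lists. On chromosome 2 at 179962346 to 179962593 there were 10 nucleosomes in Cdx2 KO, 2 in Hnf4a KO, 6 in the library titled Cdx2-Cdx1, 4 in the library titled Cdx2-Hnf4a and 4 in WT, with an HNF4A score of 55.1 in Cdx2 KO. On chromosome 9 at 106151818 to 106152606 there were 9 in Cdx2 KO, 7 in Hnf4a KO, 8 in each double knockout and 5 in WT. That region lay 709 bp from a WT CDX2 peak, and the one on chromosome 2 lay 86239 bp from one. On chromosome 5 at 37479879 to 37480343 there were 8 in Cdx2 KO, 6 in Hnf4a KO, 8 and 7 in the double knockouts titled Cdx2-Cdx1 and Cdx2-Hnf4a, and 4 in WT. Hnf4a KO gave its own set. The largest fall there, on chromosome 2 at 155632394 to 155632725, was to 0 nucleosomes in Hnf4a KO, against 6 in WT, with 5 in Cdx2 KO and 0 in both double knockouts. A kept region beside it, at 155631143 to 155631718, had 1 in Hnf4a KO and 6 in WT. With nucleosomes of any score counted, both regions had 6 in Hnf4a KO and 6 in WT, so these falls are falls below the score minimum. The largest rise in Hnf4a KO, on chromosome 7 at 52963420 to 52963999, was to 9 nucleosomes, against 5 in WT, with 6 in Cdx2 KO.

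Nucleosomes lay on either side of the HNF4A peak centre. In every list but 1 the commonest distance from the centre was 150 to 200 bp, with 0.369 nucleosomes per region in that 50 bp bin in Cdx2 KO, 0.406 in Hnf4a KO and 0.456 in WT after scaling, both sides together. It was 100 to 150 bp in the library titled Cdx2-Hnf4a, though nearly level, with 1582 nucleosomes there and 1576 at 150 to 200 bp. Next to the centre, at 0 to 50 bp, the numbers were 0.191 in Cdx2 KO, 0.203 in Hnf4a KO and 0.177 in WT. The flanking peak was therefore lower in the knockouts and the trough at the centre slightly shallower. Lost peaks had a weaker version of the WT pattern. Regions with a nucleosome on each side at 100 to 400 bp and none within 100 bp made up 42.4% (41.1 to 43.8) of kept regions and 26.2% (25.3 to 27.2) of lost peaks in WT. Among peaks with CDX2 in WT they made up 48.1% (45.4 to 50.9) where HNF4A was kept and 32.9% (30.9 to 34.9) where it was lost.

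**Figure D4:**
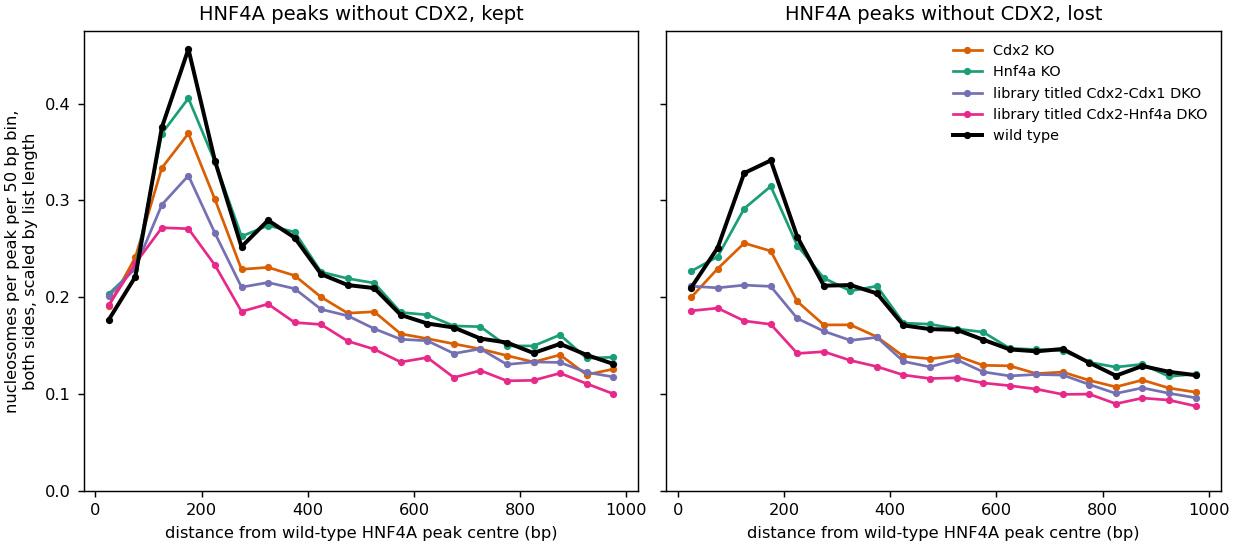
H3K4me2 nucleosomes per peak in 50 bp bins (vertical, both sides added, scaled by list length) by distance from the WT HNF4A peak centre (horizontal), in 4 knockout lists and WT, for kept regions (left) and lost peaks (right) without CDX2. At kept regions the flanking maximum at 150 to 200 bp is 0.369 in Cdx2 KO and 0.456 in WT, and the lines converge within 100 bp of the centre.

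The lower mark at kept regions lay in the flanks and farther out, and the centre had no fewer nucleosomes than in WT. In Cdx2 KO the scaled ratio to WT was 0.857 (0.833 to 0.882) at 100 to 400 bp and 0.903 (0.878 to 0.928) at 400 to 1000 bp, but 1.08 (1.02 to 1.15) within 100 bp, where 2361 nucleosomes were called in Cdx2 KO and 2040 in WT. The library titled Cdx2-Cdx1 gave 0.774 in the flanks and 1.08 (1.02 to 1.15) at the centre. The library titled Cdx2-Hnf4a gave 0.676 in the flanks and 1.07 (1.01 to 1.13) at the centre. Hnf4a KO, with 0.976 (0.949 to 1.00) in the flanks, had 1.09 (1.03 to 1.16) at the centre. With nucleosomes of any score counted, the share of its nucleosomes lying at the centre was no longer above that of WT, with a difference of -0.0167 percentage points. At lost peaks the centre ratio was lower, at 0.931 (0.891 to 0.972) in Cdx2 KO, 0.912 and 0.812 in the double knockouts titled Cdx2-Cdx1 and Cdx2-Hnf4a, and 1.01 in Hnf4a KO. Peaks with CDX2 in WT that kept HNF4A had the same form as kept regions. Their centre ratio was 1.14 (1.01 to 1.29) in Cdx2 KO and 1.12 (0.987 to 1.26) in Hnf4a KO. It was 1.23 (1.09 to 1.38) in the library titled Cdx2-Cdx1 and 1.28 (1.14 to 1.44) in the library titled Cdx2-Hnf4a. Their flank ratios were 0.853, 0.985, 0.778 and 0.664 in the same order.

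All 4 centre ratios at kept regions rest on the same 2040 WT nucleosomes, so the knockouts were also set against each other. Within 100 bp, Cdx2 KO over Hnf4a KO was 0.995 (0.938 to 1.05) at kept regions, whereas in the flanks it was 0.878 (0.853 to 0.904). The library titled Cdx2-Cdx1 over Cdx2 KO was 1.00 (0.945 to 1.06) at the centre and 0.903 (0.877 to 0.930) in the flanks. The library titled Cdx2-Hnf4a over Cdx2 KO was 0.987 (0.932 to 1.04) at the centre and 0.789 (0.765 to 0.813) in the flanks. At 400 to 1000 bp Cdx2 KO over Hnf4a KO was 0.879 (0.855 to 0.903), the library titled Cdx2-Cdx1 over Cdx2 KO was 0.960 (0.934 to 0.987), and the library titled Cdx2-Hnf4a over Cdx2 KO was 0.836 (0.812 to 0.860). Between these knockouts, then, the lower mark was again in the flanks and farther out, and the interval of each centre ratio included 1. At lost peaks Cdx2 KO over Hnf4a KO was 0.918 (0.878 to 0.959) at the centre and 0.801 in the flanks.

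**Figure D5:**
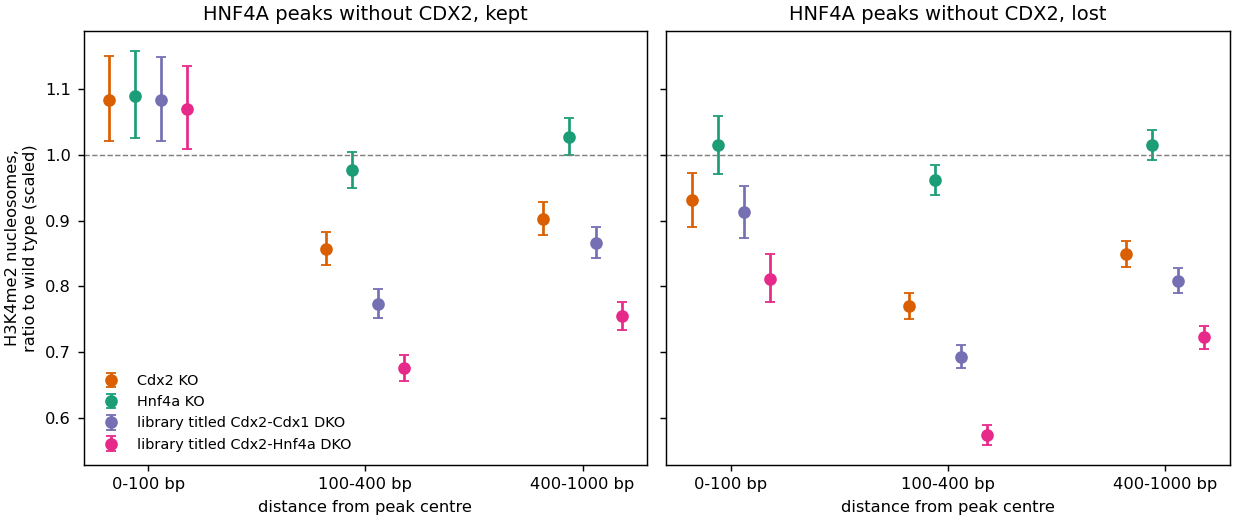
Ratio to WT of H3K4me2 nucleosome numbers (vertical, scaled) at 0 to 100, 100 to 400 and 400 to 1000 bp from the WT HNF4A peak centre (horizontal) in 4 knockout lists (colours), for kept regions (left) and lost peaks (right) without CDX2, with 95% intervals for counting error. At kept regions all 4 centre values lie between 1.07 and 1.09, while the flank values run from 0.676 to 0.976.

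The share of nucleosomes within 100 bp of the centre was larger than in WT in the 3 lists whose labels have Cdx2 deleted, and in Hnf4a KO its excess depended on the scores counted. The share was 11.0% (10.6 to 11.4) of those within 1 kb in Cdx2 KO, 9.82% (9.44 to 10.2) in Hnf4a KO, 11.7% in the library titled Cdx2-Cdx1 and 13.0% in the library titled Cdx2-Hnf4a, against 9.11% (8.73 to 9.49) in WT. The Hnf4a KO share minus the WT share was 0.713 percentage points (0.172 to 1.25). That difference was -0.0167 points (-0.514 to 0.477) with nucleosomes of any score counted and 0.531 points (-0.264 to 1.33) at HNF4A scores of 100 or more. The arrangement with an empty centre between flanking nucleosomes was seen at 34.7% (33.4 to 36.1) of kept regions in Cdx2 KO, 38.7% in Hnf4a KO, 30.7% in the library titled Cdx2-Cdx1 and 24.9% in the library titled Cdx2-Hnf4a, against 42.4% in WT. At lost peaks the shares were 17.4%, 24.5%, 15.4% and 11.0% in the same lists, against 26.2% in WT. At peaks with CDX2 in WT that kept HNF4A they were 37.1%, 44.5%, 32.6% and 23.6%, against 48.1% in WT.

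In the single knockouts, new central nucleosomes were about as common at kept regions as at HNF4A peaks in general. Of 3086 kept regions with none at the centre in WT, 599 (19.4%) had one in Cdx2 KO, against 19.9% of all such peaks, and 570 (18.5%) in Hnf4a KO, against 18.8%. The library titled Cdx2-Cdx1 gave 27.5% (25.9 to 29.1), against 27.3% of all. The library titled Cdx2-Hnf4a gave 28.5% (27.0 to 30.2), against 26.4% of all and 22.4% (21.2 to 23.6) of lost peaks. Peaks with CDX2 in WT that kept HNF4A gained one more often in the lists whose labels have Cdx2 deleted. In Cdx2 KO the shares were 19.4% at kept regions and 23.4% (20.5 to 26.5) at those peaks, a difference of -4.01 percentage points (-7.34 to -0.872). For the library titled Cdx2-Cdx1 the shares were 27.5% at kept regions and 33.1% (29.8 to 36.5) at those peaks, and for the library titled Cdx2-Hnf4a 28.5% at kept regions and 39.4% (36.0 to 42.9) at those peaks, a difference of -10.9 points (-14.6 to -7.17). In Hnf4a KO the share at kept regions minus that at those peaks was 0.503 points (-2.60 to 3.37). Central nucleosomes already present in WT were called again in Cdx2 KO more often at kept regions than at lost peaks. Of 1994 kept regions with one in WT, 291 (14.6%, 13.1 to 16.2) had none in Cdx2 KO, against 21.8% of all and 24.1% (22.8 to 25.5) of lost peaks, and 17.6% (14.3 to 21.3) of peaks with CDX2 that kept HNF4A. In Hnf4a KO 403 (20.2%) had none, against 22.1% of all and 22.7% of lost peaks. The corresponding shares were 18.9% in the library titled Cdx2-Cdx1, against 23.8% of all, and 22.9% in the library titled Cdx2-Hnf4a, against 31.5%.

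A CDX2 peak was called at few kept regions when Hnf4a was missing, and the criteria had barred CDX2 there in WT. A CDX2 peak of Hnf4a KO overlapped 38 of the 5080 regions, or 0.748% (0.530 to 1.03), against 2.31% of all WT HNF4A peaks and 0.481% (0.347 to 0.650) of lost peaks. The 2.31% takes in peaks that overlap CDX2 in WT, so a lower share at kept regions was built in. The share at kept regions minus that at lost peaks, which were barred alike, was 0.267 percentage points (0.00298 to 0.570). Without WT CDX2 replicate 1 to bar CDX2, the share was 1.36%. At the peaks that had CDX2 in WT the share was 11.7% where HNF4A was kept in Cdx2 KO and 10.7% where it was lost. The 38 CDX2 peaks were weak, with a median score of 59.9 where 50 is the lowest listed. The highest, on chromosome 19 at 57387745 to 57388066, had a CDX2 score of 104 in Hnf4a KO. H3K4me2 nucleosomes there numbered 9 in Cdx2 KO, 8 in Hnf4a KO and 7 in WT. Next was a strong HNF4A region on chromosome 7 at 134504894 to 134505502, with a CDX2 score of 91.5 in Hnf4a KO and HNF4A scores of 455 in Cdx2 KO and 1028 in WT. At the 38 regions together the nucleosome ratio to WT was 0.843 (0.678 to 1.05) in Cdx2 KO and 1.08 (0.876 to 1.33) in Hnf4a KO.

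The kept regions did not overlap WT CDX2, but many lay near it. A WT CDX2 peak was within 5 kb of 1256 regions, or 24.7% (23.5 to 25.9), against 35.3% of all WT HNF4A peaks, 22.5% of those that overlap none and 26.4% (25.5 to 27.3) of lost peaks. With replicate 1 of WT CDX2 not used to bar CDX2, 37.1% of the regions then chosen had a peak of either WT CDX2 library within 5 kb, overlaps with replicate 1 included. The median distance was 17291 bp at kept regions and 15748 bp at lost peaks. By distance from CDX2, the H3K4me2 ratios of Cdx2 KO at kept regions had overlapping intervals. The ratio was 0.882 (0.828 to 0.940) at the 406 kept regions within 1000 bp of CDX2, 0.873 (0.834 to 0.914) at 1000 to 5000 bp, 0.890 at 5000 to 20000 bp, 0.918 (0.890 to 0.946) at 20000 to 100000 bp and 0.917 (0.858 to 0.980) beyond. The lost peaks gave 0.780 (0.743 to 0.819) within 1000 bp, 0.843 (0.821 to 0.866) at 20000 to 100000 bp and 0.827 (0.783 to 0.874) beyond 100000 bp. Of these, the intervals within 1000 bp and at 20000 to 100000 bp did not overlap. At each distance the kept regions were higher.

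HNF4A peaks came in groups at kept and lost sites alike. Another WT HNF4A peak was centred within 10 kb of 62.1% (60.7 to 63.4) of kept regions, against 57.7% of all WT HNF4A peaks and 62.7% of lost peaks. Within 2 kb the share of kept regions was 29.4%, and these windows can count the same nucleosome more than once. Joined at 10 kb, the 5080 regions formed 4243 runs, of which 3587 were single regions and 8 held 5 or more. A run of 6 on chromosome 7, from 20408862 to 20428839, had summed nucleosome numbers of 32 in Cdx2 KO, 34 in Hnf4a KO, 29 in the library titled Cdx2-Cdx1, 24 in the library titled Cdx2-Hnf4a and 32 in WT. The other run of 6, on chromosome 15 from 81661490 to 81676603, had 19 in Cdx2 KO, 24 in Hnf4a KO, 19 and 23 in the double knockouts titled Cdx2-Cdx1 and Cdx2-Hnf4a, and 26 in WT.

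Peaks nearest the limits of the criteria were as follows. A region on chromosome 9 at 116927559 to 116927853 entered by 2 bp of overlap with its Cdx2 KO peak, which scored 182. A peak on chromosome 2 at 174298749 to 174299096 missed by 3 bp, and had 3 nucleosomes in Cdx2 KO and 4 in WT. A region on chromosome 7 at 130488118 to 130488283 entered with a CDX2 peak 1 bp away, whereas one on chromosome 4 at 55714165 to 55714648 was left out for 2 bp of overlap with CDX2. The nearest WT nucleosome was 995 bp from a region on chromosome 11 at 86163805 to 86163977, which entered, and 1136 bp from a peak on chromosome 9 at 96491807 to 96491993, which did not and had 0 nucleosomes in all 5 lists. In all, 348 peaks met the other criteria but had no WT nucleosome within 1 kb.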

How the data were processed

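Peaks and nucleosomes were called by the authors, 1 list per library. The factor lists deposited by the authors give a score per peak, and the H3K4me2 lists give, per the file headers, a score equal to −log10 p multiplied by 10, which goes no higher than 3250. Names in the factor lists point to MACS. No aligner, caller version or control is given in the sources used here. The build is mm9, per the submitters' processing notes. Per the labels' protocols, villi were released with 15 mM EDTA, held back by a 70 µm filter and fixed in 1% formaldehyde; unfixed villi digested with micrococcal nuclease are also described, without naming libraries. Each library used 10 to 20 ng of pooled ChIP DNA. No label says whether the CDX2 WT libraries came from separate animals.

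From these lists, overlaps (1 bp), distances and nucleosomes of score 52 or more centred within 1 kb were counted with Python 3.11.15, numpy 2.4.6, pandas 2.3.3 and SciPy 1.17.1. Positions count from 1. Shares have exact Clopper-Pearson intervals, ratios exact binomial intervals and quotients of ratios log-normal ones. The counting was tested on simulated data. Groups were taken from the titles. No test was made, since each condition had 1 library and the 2 CDX2 WT libraries only served to bar CDX2. The regions, groups, score minimum and bands were chosen with earlier results of these data known.

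Regions named are those first by WT score, by score ratio, by nucleosome change in Cdx2 KO or Hnf4a KO among regions with 4 or more WT nucleosomes, by CDX2 score in Hnf4a KO, by run length, and those nearest each limit; the runs were added after their values were seen. Alternatives were other overlaps, windows, score minimums, scalings, list lengths and each CDX2 WT library left out. Gene annotation and sequence of build mm9 were not used here.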

Additional observations from a re-analysis of the deposited data

How the results depend on the processing

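Depth is unknown, each knockout has 1 library, and no alternative can stand in for a second one. Across the alternatives the kept regions had an H3K4me2 ratio to WT below 1 in Cdx2 KO and in both double knockouts, and a ratio above that of lost peaks in Cdx2 KO. For values that moved, the cause was not tested unless the setting itself shows it.

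With HNF4A scores of 100 or more in both lists, 2123 regions met the criteria, 2.08% without a nucleosome in Cdx2 KO, 26.7% with WT CDX2 within 5 kb and 42.5% with another HNF4A peak within 10 kb. With HNF4A lists of equal length, WT CDX2 was within 5 kb of 26.6% and another HNF4A peak within 10 kb of 44.7% (fewer peaks were counted in both settings), the kept ratio in Cdx2 KO was 1.13 times the lost one, and the ratio in the library titled Cdx2-Hnf4a was 0.725. With at least 50% of the shorter peak covered, 25.95% had WT CDX2 within 5 kb.

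With a 500 bp window, 4.09% of kept regions had no nucleosome in Cdx2 KO, and the ratio in the library titled Cdx2-Cdx1 was 0.827. With a 2 kb window these were 2.58% and 0.866, and the ratio in the library titled Cdx2-Hnf4a was 0.769. The excess over WT in the percent of nucleosomes at the centre was 1.87 points in Cdx2 KO, 0.713 in Hnf4a KO, 2.57 in the library titled Cdx2-Cdx1 and 3.90 in the library titled Cdx2-Hnf4a. In the 500 bp window it was 3.02, 1.27, 4.37 and 6.30 in the same order, since fewer outer nucleosomes enter. In the 2 kb window it was 1.18 in Cdx2 KO, 1.58 in the library titled Cdx2-Cdx1 and 2.45 in the library titled Cdx2-Hnf4a.

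With nucleosome lists as deposited, the Hnf4a KO ratio was 0.702 and its central excess reversed to -0.0167 points. The region on chromosome 11 at 97669725, with 5 fewer nucleosomes in Hnf4a KO than in WT, then had 3 more. That list alone reaches low scores. With nucleosome scores of 100 or more, 5.28% had no nucleosome in Cdx2 KO. Scaled by number of nucleosomes, the ratio was 0.918 in Cdx2 KO and 0.990 in Hnf4a KO. With no scaling it was 0.960 in Cdx2 KO, 0.972 in the library titled Cdx2-Cdx1 and 0.857 in the library titled Cdx2-Hnf4a. With summed nucleosome scores it was 0.918 in Cdx2 KO and 0.789 in the library titled Cdx2-Hnf4a, and the kept ratio in Cdx2 KO was 1.04 times the lost one.

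Leaving out each CDX2 WT library gave 5149 to 6084 kept regions, HNF4A score ratios of 0.649 to 0.676, CDX2 in Hnf4a KO at 0.855% to 1.36%, WT CDX2 within 5 kb at 25.7% to 37.1% and another HNF4A peak within 10 kb at 62.3% to 64.2%. The higher shares of CDX2 came without replicate 1, which holds more peaks. H3K4me2 ratios lay at 0.892 to 0.898 in Cdx2 KO, 1.01 in Hnf4a KO in both cases, 0.840 to 0.845 in the library titled Cdx2-Cdx1 and 0.740 to 0.748 in the library titled Cdx2-Hnf4a. The kept over lost quotient was 1.09 to 1.10, and 3.22% to 3.39% had no nucleosome in Cdx2 KO. Central excess was 1.90 to 1.92 points in Cdx2 KO, 0.682 to 0.730 in Hnf4a KO, 2.55 to 2.74 in the library titled Cdx2-Cdx1 and 3.96 to 4.21 in the library titled Cdx2-Hnf4a.

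Alternatives chosen after seeing the data were a centre of 75 bp, which gave 2.96 points in the library titled Cdx2-Hnf4a, midpoints of WT and Cdx2 KO peak centres, and leaving out regions with another HNF4A peak within 2 kb, where the Cdx2 KO ratio was 0.910. Over 20 regions named for a change in nucleosome number, 40 of 80 alternative values were within 1 nucleosome of the value reported, 39 moved further and 1 reversed. No paired analysis was possible because the groups compared share fewer than 2 replicate numbers. Start sites and motifs at the regions were not run.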
